A study of Mus musculus with 12 samples.

Results

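Sema4d, Efnb2, Tgfb1, Pdgfb, Sphk1, Lif and Cthrc1 are 7 genes for signals that pass from osteoclasts, the multinucleated cells that resorb bone, to the osteoblasts that rebuild it. They were taken by name as known osteoclast-derived coupling factors, not by a rule on their values, but with earlier results of these data known. All 7 were found among the 55414 gene IDs counted. All 7 were also among the 13403 genes that passed the count filter and were tested. The RNA came from 12 osteoclast cultures in 4 groups of 3, which the labels call biological replicates without saying whether each came from a separate mouse. The groups were Notch2 mutant with Hes1 deletion, wild type with Hes1 deletion, Notch2 mutant with Hes1 loxP and wild type with Hes1 loxP. Notch2 encodes a receptor of the cell surface, and Hes1 a repressor of transcription that is induced by Notch signals. In the Hes1 loxP groups the gene is flanked by loxP sites and still present. The labels name neither the Notch2 mutation nor the way Hes1 was deleted. All groups came from male mice of 7 to 8 weeks, compared between sex-matched littermates. Macrophages from their marrow were expanded in M-CSF (30 ng/ml), a growth factor of this lineage, and turned into osteoclasts with RANKL over the 4 days after day 3. Sequencing of RNA from such a culture cannot tell fewer cells of a type apart from less RNA per cell.

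Bone is renewed by resorption followed by formation at the same place, and coupling is the name for the signals that link these steps. Some coupling factors sit on the osteoclast surface and act on contact, some are secreted, some are lipids made by an enzyme of the osteoclast, and some are set free from the bone matrix that osteoclasts dissolve. Most favour bone formation by recruiting or activating osteoblast precursors, whereas semaphorin 4D, the product of Sema4d, restrains it. Notch receptors, once bound by ligand, release a fragment that joins the DNA-binding protein RBPJ, and HES1 binds short N box and E box letters in DNA.

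Each library held between 13832368 and 19293772 counts that had a gene. Hes1 was checked first as the targeted gene. Its counts summed to 2 in each Hes1 deletion group, against 7 in Notch2 mutant and 23 in wild type Hes1 loxP libraries. Hes1 thus had few counts with Hes1 loxP as well. These counts check the deletion only weakly, most so in Notch2 mutants. Notch2 averaged 169 CPM (counts scaled to a library total of 1e+06) in Notch2 mutant Hes1 deletion, 163 in wild type Hes1 deletion, 156 in Notch2 mutant Hes1 loxP and 166 in wild type Hes1 loxP libraries. As the site of the mutation is not named, this level does not check which libraries carry it. All 12 genes of an osteoclast marker list were detected, led by Mmp9, Ctsk and Acp5 at 6023, 4843 and 3902 RPKM (CPM per kilobase of exon); the lowest were Itgb3 at 104 and Calcr at 6.99 RPKM. Of these 12 markers, 7 rose and none fell in Notch2 mutants averaged over both Hes1 states, with a median log2 fold change of 0.19. In the same comparison, 4 of 10 macrophage markers fell (Adgre1, Fcgr1, Mrc1 and Msr1) and none rose, with a median log2 fold change of -0.13. Pf4 of 3 tested megakaryocyte and platelet markers also fell. Over all tested genes, 1.89% passed. Of the 10 macrophage markers 3 were positive, and the highest in CPM, Csf1r, averaged 2144 CPM in Notch2 mutant and 2026 CPM in wild type libraries. The 10 summed to means of 4713 CPM in Notch2 mutant and 4593 CPM in wild type Hes1 deletion libraries. With Hes1 loxP the means were 4639 CPM in Notch2 mutant and 4650 CPM in wild type libraries. None of 5 endothelial, 2 lymphocyte and 7 neutrophil markers tested passed in the averaged Notch2 comparison. At an unadjusted p under 0.05 there were 1, 0 and 3, beside 16.3% of all genes. Between Hes1 states, averaged over Notch2 genotype, Ctsk fell and no other gene of these lists passed. The part of these cell types, and of the stromal cells considered below, in the values that follow was not tested.

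The coupling factors spanned a wide range of mRNA levels. Per length, Sema4d led with a mean of 120 RPKM over the 12 libraries, above 97.3% of the genes tested. Tgfb1 at 57.7 RPKM and Pdgfb at 52.5 RPKM came next, above 93.8% and 93.1% of genes. Lif averaged 11.8 RPKM and Sphk1 5.32 RPKM. Cthrc1 at 3.01 RPKM and Efnb2 at 2.83 RPKM were the lowest and lay below most tested genes. The library ranges of Tgfb1 (54.4 to 61.7 RPKM) and Pdgfb (48.2 to 57.6 RPKM) overlapped, and so did those of Cthrc1 (1.77 to 3.84 RPKM) and Efnb2 (2.39 to 3.18 RPKM). All other neighbours in this order had ranges that did not overlap. Scaled to the longest annotated transcript in place of all exons, Sema4d had 206 RPKM, Tgfb1 113, Pdgfb 74.3, Lif 12.8, Sphk1 6.25, Cthrc1 4.11 and Efnb2 4.05, the same order.

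**Figure D1:**
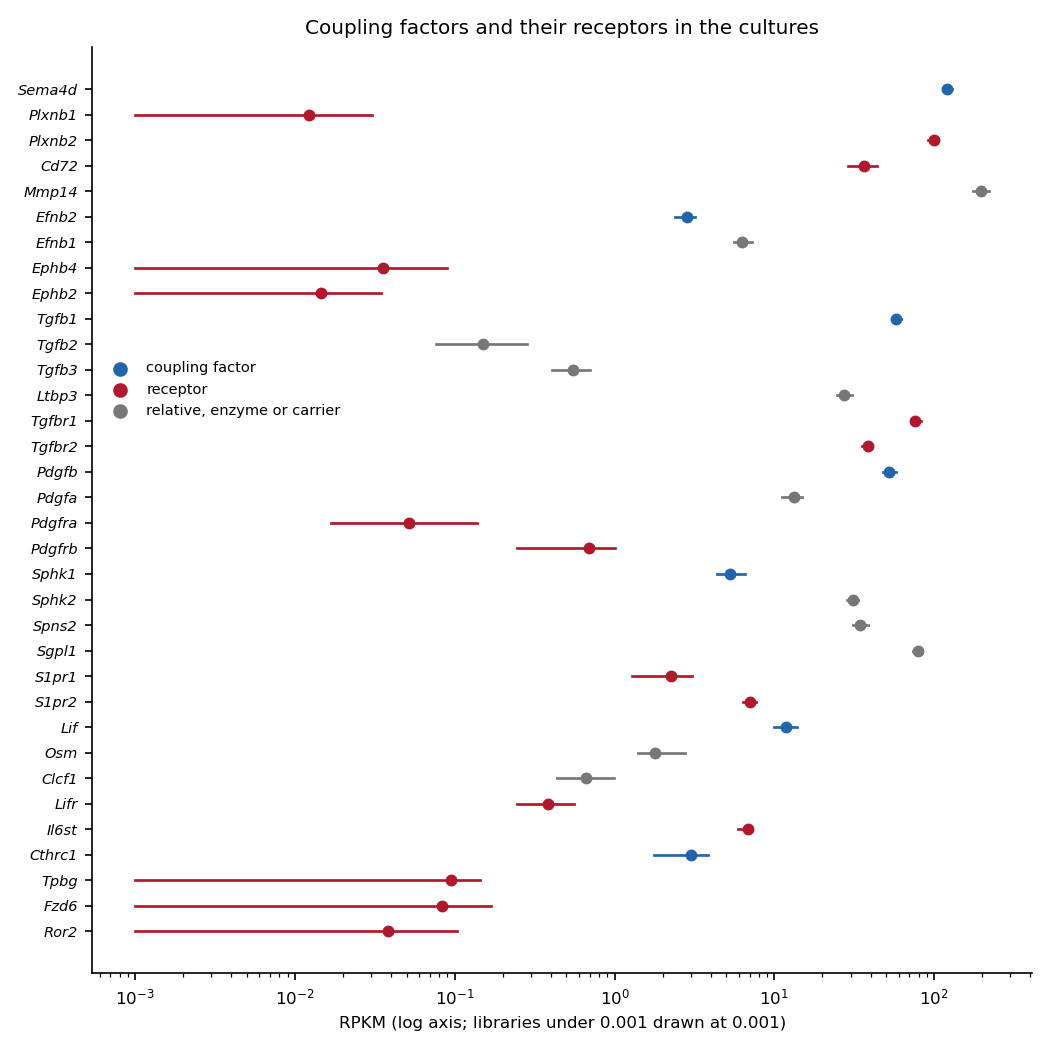
Levels of the 7 coupling factors, their receptors and their relatives in RPKM on a log axis; points are means over 12 libraries and lines run from the lowest to the highest library, cut off at the left end of the axis where a library held none. Sema4d, Tgfb1 and Pdgfb lie between 52.5 and 120 RPKM, while Plxnb1 and Ephb4, receptors for semaphorin 4D and ephrin-B2, lie under 0.04 RPKM.

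The spread between libraries was small for the abundant factors. The coefficient of variation of CPM over all 12 libraries, whatever their genotype, was 2.91% for Sema4d, 4.11% for Tgfb1 and 5.36% for Pdgfb. It was 8.28% for Efnb2, 9.32% for Lif, 11.04% for Sphk1 and 21.3% for Cthrc1, which had only 41 to 117 counts per library. For Cthrc1 these counts limit how small a difference could be seen.

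RefSeq promoter windows (250 bases before to 50 after a transcript start, build GRCm38.p6) were matched by symbol for 5 of the 7 genes, in 11 windows; the others are Pdgfb and Cthrc1. They were searched on both strands for the RBPJ core TGGGAA and the N box CACNAG, the letters read by the Notch complex and by HES1; the 2 patterns do not overlap in the window that holds both. The RBPJ core was in 3 windows, 1 each of Lif, Sphk1 and Sema4d, and the N box in 3 windows of Efnb2 and Sphk1. The Sphk1 windows with an N box overlap and hold the same site. Among all 32851 windows, 25.6% held the RBPJ core and 42.5% the N box, so either match was common. The 3 stretches below are the parts of matching windows that lie outside annotated exons, 5′ to 3′ on the gene's strand, with matched letters in capitals, shown because Lif, Sphk1 and Efnb2 are the 3 factors other than Pdgfb and Cthrc1 that reached an unadjusted p under 0.05 in a Notch2 comparison. They lie at chr11:4257318-4257556 (plus strand) for Lif, chr11:116531587-116531743 (plus strand) for Sphk1, inside the gene's annotated span and ahead of a later transcript start, and chr8:8661243-8661492 (minus strand) for Efnb2. The core in Lif (as TTCCCA, the reverse complement) starts 128 bases before the transcript start, those in Sphk1 214 bases (TGGGAA) and 168 bases (CACGAG) before it, and the N box in Efnb2 (as CTGGTG) 239 bases before it.
Lif: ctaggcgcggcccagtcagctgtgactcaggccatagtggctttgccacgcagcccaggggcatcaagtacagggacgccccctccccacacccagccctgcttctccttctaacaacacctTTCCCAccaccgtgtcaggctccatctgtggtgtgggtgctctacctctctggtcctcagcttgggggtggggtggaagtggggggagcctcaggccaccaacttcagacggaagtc
Sphk1: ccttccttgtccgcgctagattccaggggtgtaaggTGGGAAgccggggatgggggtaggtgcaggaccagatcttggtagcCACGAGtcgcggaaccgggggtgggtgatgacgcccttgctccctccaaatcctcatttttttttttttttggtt
Efnb2: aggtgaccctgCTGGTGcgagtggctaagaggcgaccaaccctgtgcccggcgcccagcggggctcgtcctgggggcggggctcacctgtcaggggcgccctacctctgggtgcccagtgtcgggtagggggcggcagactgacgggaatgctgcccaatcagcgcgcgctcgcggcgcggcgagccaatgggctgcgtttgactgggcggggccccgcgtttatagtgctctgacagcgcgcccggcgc

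None of the 7 coupling factors passed the test in any of the 7 comparisons, with edgeR's quasi-likelihood test and a Benjamini-Hochberg adjusted p under 0.05. In Notch2 mutant against wild type with Hes1 loxP, 0.776% of all tested genes passed and 0 members did. At an unadjusted p under 0.05, 3 members stood in that comparison (Pdgfb, Sphk1 and Cthrc1), where 14.2% of all genes did. With the Hes1 deletion, 0.0149% of genes passed the adjusted threshold, and at an unadjusted p under 0.05 there were 2 members (Lif and Efnb2) beside 6.69% of genes. Averaged over both Hes1 states, which sets 6 libraries against 6, 1.89% of genes passed, and 5 members (Pdgfb, Sphk1, Lif, Cthrc1 and Efnb2) beside 16.3% of genes had an unadjusted p under 0.05. DESeq2 called 1 member, Pdgfb, in the averaged Notch2 comparison and 0 members in the other 6; limma-voom called 0 in all 7. The median log2 fold change of the members was 0.13 in the averaged Notch2 comparison, beside 0.00 over all genes tested, with 6 members positive and Cthrc1 negative. The 7 comparisons share libraries, so their values are not independent of each other.

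Hes1 deletion against Hes1 loxP was compared in the same way. In wild type, 0.0373% of genes passed the adjusted threshold, and 1 member (Cthrc1) beside 5.93% of genes had an unadjusted p under 0.05. In Notch2 mutants the same 0.0373% of genes passed, and 0 members beside 4.76% of genes had an unadjusted p under 0.05. Averaged over Notch2 genotype, 0.0821% of genes passed, with 1 member (Cthrc1) beside 6.89% of genes at an unadjusted p under 0.05. The test of whether the Notch2 difference depended on Hes1 (the interaction) passed for 0.0% of genes, and 0 members beside 3.78% of genes had an unadjusted p under 0.05 in it; DESeq2 and limma-voom called 0 genes there as well. For all members but Cthrc1 the Hes1 difference averaged over Notch2 genotype was between -0.09 and 0.00 on the log2 scale.

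**Figure D2:**
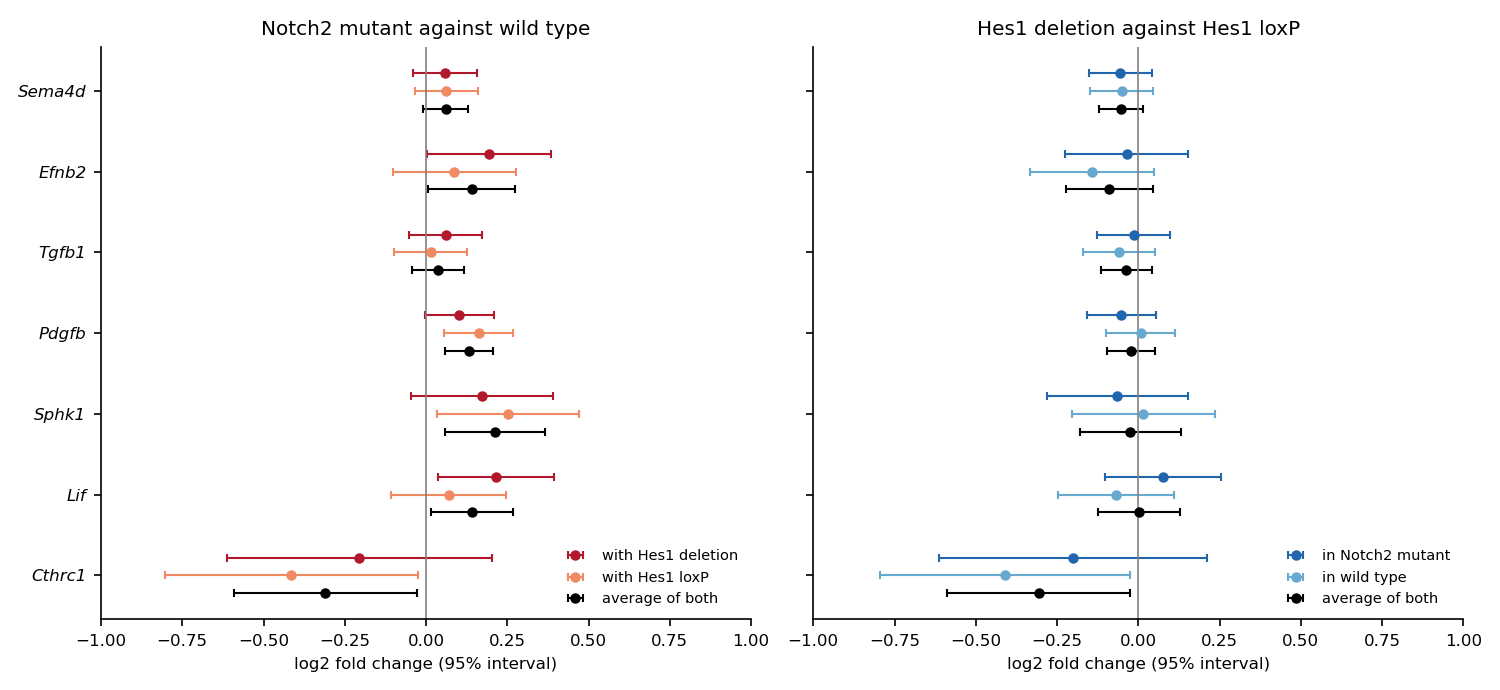
Log2 fold changes of the 7 coupling factors with 95% intervals, for Notch2 mutant against wild type (left) and Hes1 deletion against Hes1 loxP (right), within each state of the other gene and averaged. Pdgfb lies at 0.13 in the averaged Notch2 comparison, with an interval of 0.06 to 0.21, and Cthrc1 lies below 0 in both panels.

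The 95% intervals bound what these libraries leave possible. Over the 4 comparisons within a state of the other gene, they ran from 0.900 to 1.12-fold for Sema4d, from 0.888 to 1.13-fold for Tgfb1 and from 0.896 to 1.204-fold for Pdgfb. For Efnb2 they ran from 0.794 to 1.31-fold, for Lif from 0.842 to 1.31-fold and for Sphk1 from 0.822 to 1.39-fold. The widest, for Cthrc1, ran from 0.573 to 1.16-fold.

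**Figure D3:**
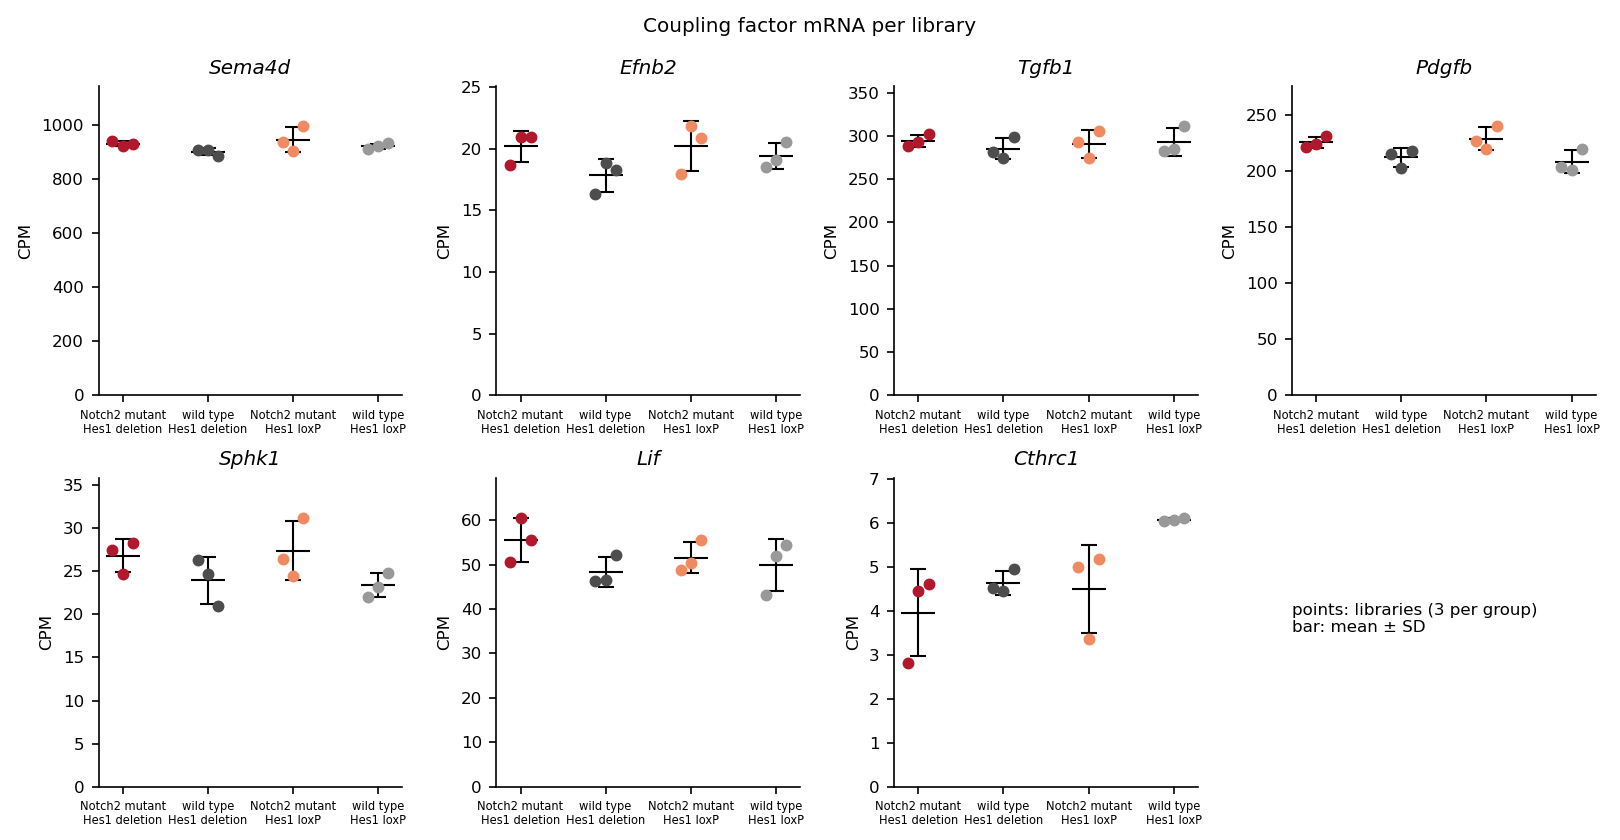
CPM of the 7 coupling factors in each of the 12 libraries, with the mean and SD of each group of 3; the axes start at 0. The 3 wild type Hes1 loxP libraries of Cthrc1, at 6.06 to 6.12 CPM, lie above those of Notch2 mutant Hes1 loxP and wild type Hes1 deletion. Such separations were seen for 18.3% and 10.9% of all tested genes, in either direction. The groups of Sema4d and Tgfb1 differ little beside their levels.

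Among the factors on the osteoclast surface, Sema4d (ENSMUSG00000021451, chromosome 13, 51685529 to 51793747, minus strand, GRCm38) encodes semaphorin 4D, which binds plexin-B1 on osteoblasts and restrains bone formation. With the Hes1 deletion it had 940.4, 923 and 928 CPM in Notch2 mutant libraries, against 909, 907 and 887 CPM in wild type libraries. With Hes1 loxP it had 937, 905 and 995 CPM in Notch2 mutant libraries, against 912.5, 921 and 932 CPM in wild type libraries. The groups did not overlap with the Hes1 deletion, where the mutant was higher, and overlapped with Hes1 loxP, where mutant replicate 2 was the lowest of the 6. The log2 fold changes were 0.06 ± 0.05 (SE) in each, with adjusted p = 0.865 with the Hes1 deletion and 0.595 with Hes1 loxP. In wild type, all 3 Hes1 deletion libraries were below all 3 Hes1 loxP libraries, by -0.05 ± 0.05 on the log2 scale (adjusted p = 0.944).

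A list of 16 genes held partners of semaphorin 4D, proteases and other semaphorins, and 14 of them were tested. Plxnb1, its plexin receptor on osteoblasts, had 24 counts over the 12 libraries and was below the filter, whereas Plxnb2 ran from 91.4 to 105.5 RPKM and was -0.01 to 0.01 in log2 fold change between Notch2 mutant and wild type. Averaged over Hes1 states, 2 of these genes rose in Notch2 mutants and none fell. Of the 14, 6 were positive and 8 negative, with a median log2 fold change of -0.02. The proteases Adam10 and Adam17 did not pass and lay lower in Notch2 mutants. Adam10 averaged 242.5 CPM in Notch2 mutant and 259.7 CPM in wild type libraries, and Adam17 206.6 and 222.1 CPM. Mmp14, a membrane protease that can shed semaphorin 4D, averaged 1235 ± 45.0 CPM in Notch2 mutant and 1108 ± 57.4 CPM in wild type libraries (SD, n = 6 each), a log2 fold change of 0.18 ± 0.04 (adjusted p = 0.0278). Cd72, a B cell and macrophage receptor for semaphorin 4D, averaged 137 ± 12.8 CPM in Notch2 mutant and 114 ± 8.86 CPM in wild type libraries (SD, n = 6 each), a log2 fold change of 0.28 ± 0.06 (adjusted p = 0.0217). Exons of Cd72 overlap those of Tesk1 on the other strand, and whether the counting used strand was not given in the sources used here.

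Efnb2 (ENSMUSG00000001300, chromosome 8, 8617434 to 8661242, minus strand), whose promoter letters are given above, encodes ephrin-B2, a membrane ligand for EphB4 on osteoblasts. In the Hes1 deletion groups it had 18.7, 20.9 and 20.9 CPM in Notch2 mutant libraries, against 16.4, 18.9 and 18.3 CPM in wild type libraries. In the Hes1 loxP groups it had 17.9, 21.8 and 20.9 CPM in Notch2 mutant libraries, against 18.5, 19.1 and 20.6 CPM in wild type libraries. The groups overlapped in both, through replicate 1 of each mutant group, which was the lowest of its 3. The log2 fold change was 0.19 ± 0.09 (adjusted p = 0.745) with the Hes1 deletion and 0.09 ± 0.09 (adjusted p = 0.721) with Hes1 loxP. Of 15 ephrins and Eph receptors, 7 were tested and none passed in any comparison. At an unadjusted p under 0.05, 1 did in the averaged Notch2 comparison, beside 16.3% of all genes. Efnb1, the related ligand ephrin-B1, was the highest of them at 6.23 RPKM, followed by the receptor Epha2 at 2.89 RPKM. Ephb4 had 34 counts in all and was below the filter.

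Among the secreted growth factors, Tgfb1 (ENSMUSG00000002603, chromosome 7, 25687002 to 25705077, plus strand) encodes the latent cytokine TGF-beta 1, which is stored in bone and activated on resorption. With the Hes1 deletion it had 288, 293 and 302.5 CPM in Notch2 mutant libraries, against 281, 275 and 299 CPM in wild type libraries. With Hes1 loxP it had 293, 274 and 306 CPM in Notch2 mutant libraries, against 282, 285.5 and 311 CPM in wild type libraries. The groups overlapped in every comparison. Its Notch2 log2 fold changes were 0.06 ± 0.05 (adjusted p = 0.876) with the Hes1 deletion and 0.01 ± 0.05 (adjusted p = 0.935) with Hes1 loxP.

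The TGF-beta list held 25 genes for storage, activation, receptors and targets, of which 22 were tested. Averaged over Hes1 states, 1 rose and 2 fell in Notch2 mutants, and the median log2 fold change was -0.07. Ltbp3, which binds latent TGF-beta in the matrix, averaged 263 ± 10.3 CPM in Notch2 mutant and 235 ± 12.1 CPM in wild type libraries (SD, n = 6 each), a log2 fold change of 0.18 ± 0.04 (adjusted p = 0.0268). Thbs1, thrombospondin 1, which can activate latent TGF-beta, averaged 89.3 ± 10.9 CPM in Notch2 mutant and 111 ± 7.20 CPM in wild type libraries (SD, n = 6 each), a log2 fold change of -0.30 ± 0.06 (adjusted p = 0.0135). It also fell with Hes1 loxP alone, by -0.39 ± 0.08 (adjusted p = 0.0328). The receptor Tgfbr1 at 75.5 RPKM and the activating integrin subunit Itgav at 66.0 RPKM were the highest of the list, with averaged Notch2 log2 fold changes of 0.07 (adjusted p = 0.474) and 0.02 (adjusted p = 0.881).

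Pdgfb (ENSMUSG00000000489, chromosome 15, 79995874 to 80014977, minus strand) encodes the B chain of platelet-derived growth factor, a chemoattractant for osteoblast precursors and vessel cells. In Hes1 deletion cultures it had 221.5, 224 and 231 CPM in Notch2 mutant libraries, against 215, 203 and 218 CPM in wild type libraries. In Hes1 loxP cultures it had 227, 219.9 and 239.8 CPM in Notch2 mutant libraries, against 204, 201 and 219.8 CPM in wild type libraries. All 6 Notch2 mutant libraries were above all 6 wild type libraries, which held for 1.51% of all tested genes in either direction. Pdgfb averaged 227 ± 7.33 CPM in Notch2 mutant and 210.0 ± 8.56 CPM in wild type libraries (SD, n = 6 each), with a log2 fold change of 0.13 ± 0.04 (SE, 95% interval 0.06 to 0.21, adjusted p = 0.0633), which missed the threshold. Summed osteoclast markers ran from 38560 to 42850 CPM in Notch2 mutant and 32230 to 38520 CPM in wild type Hes1 deletion libraries, and from 46740 to 51550 CPM in Notch2 mutant and 39910 to 42900 CPM in wild type Hes1 loxP libraries. Megakaryocyte and platelet markers, from cells that also make Pdgfb, summed to 31.8 to 40.2 CPM in Notch2 mutant and 34.6 to 40.8 CPM in wild type Hes1 deletion libraries, and to 32.7 to 36.7 CPM in Notch2 mutant and 49.8 to 57.4 CPM in wild type Hes1 loxP libraries. The gap in Pdgfb was narrow, with the lowest mutant library at 219.9 CPM and the highest wild type library at 219.8 CPM. The call turned with the setting: the adjusted p was 0.0258 by DESeq2, 0.0315 without a filter on low counts and 0.0318 with the replicate number as a block. Leaving out wild type Hes1 loxP replicate 3 gave 0.0385, leaving out Notch2 mutant Hes1 loxP replicate 2 gave 0.0422, and leaving out any other library gave 0.0671 to 0.174.

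Counting each Notch2 comparison alone, Pdgfb was 1 of 2 members whose groups did not overlap with Hes1 loxP (the other was Cthrc1), beside 18.3% of all tested genes, and 1 of 2 with the Hes1 deletion (the other was Sema4d), beside 12.4%. For Hes1 deletion against Hes1 loxP, 2 members (Sema4d and Cthrc1) did not overlap in wild type, beside 10.9% of genes, and 0 in Notch2 mutants, beside 11.0%. Of 6 PDGF family and receptor genes, 5 were tested and none passed in any comparison. At an unadjusted p under 0.05, 2 did in the averaged Notch2 comparison, beside 16.3% of all genes. Pdgfa, the sister chain, was the highest of them at 13.4 RPKM, followed by the co-receptor Nrp1 at 4.15 RPKM. Pdgfrb and Pdgfra, the receptors on mesenchymal cells, averaged 0.690 and 0.0515 RPKM.

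**Figure D4:**
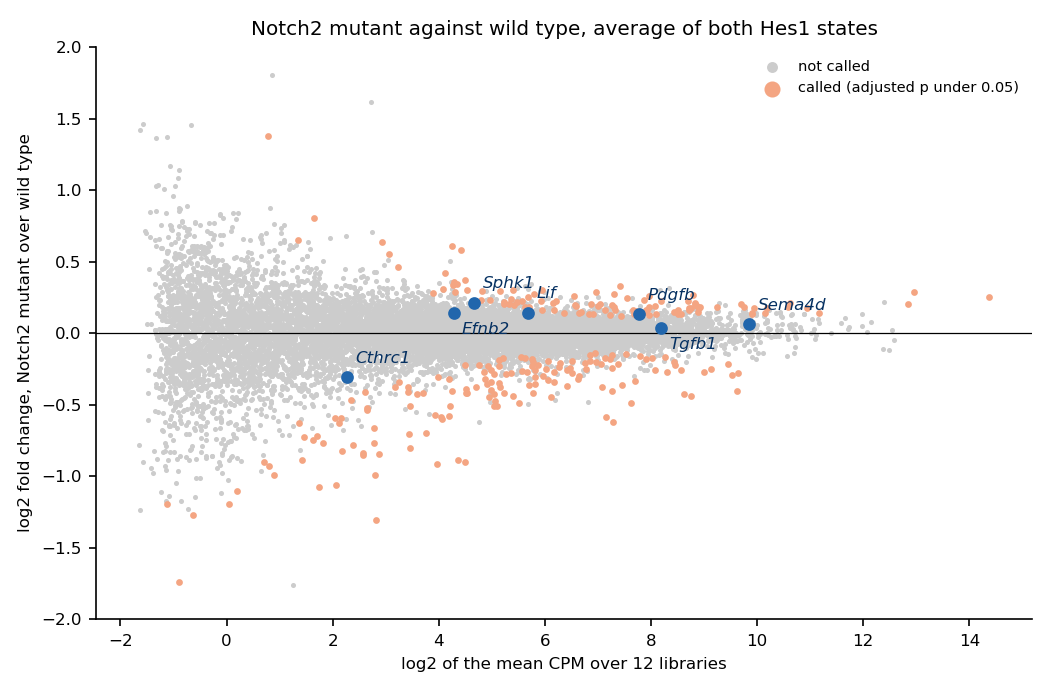
Log2 fold change of Notch2 mutant against wild type averaged over Hes1 states, against the log2 mean CPM, for all tested genes; orange points passed the adjusted threshold and blue points are the 7 coupling factors. A larger absolute log2 fold change was found for 27.6% of tested genes than for Pdgfb at 0.13. For Sphk1 at 0.21 this share was 14.8%, and for Tgfb1 at 0.04 it was 70.2%.

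Sphk1 (ENSMUSG00000061878, chromosome 11, 116530925 to 116536674, plus strand) encodes sphingosine kinase 1, which makes sphingosine 1-phosphate, a lipid that attracts osteoblast precursors. Its exons overlap those of the antisense gene Gm29292 by 192 bases, so reads of both may not be separated. With the Hes1 deletion it had 27.4, 24.7 and 28.3 CPM in Notch2 mutant libraries, against 26.3, 24.6 and 20.9 CPM in wild type libraries. With Hes1 loxP it had 26.5, 24.5 and 31.2 CPM in Notch2 mutant libraries, against 22.1, 23.2 and 24.9 CPM in wild type libraries. The groups overlapped in both. The log2 fold change was 0.17 ± 0.10 (adjusted p = 0.809) with the Hes1 deletion, 0.25 ± 0.10 (adjusted p = 0.271) with Hes1 loxP and 0.21 ± 0.07 (adjusted p = 0.145) averaged. Without a filter on low counts the averaged value had an adjusted p of 0.0352.

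Of 18 genes for sphingosine 1-phosphate metabolism, export and receptors, 15 were tested. Averaged over Hes1 states, 1 rose and 1 fell in Notch2 mutants. Spns2, which exports the lipid, averaged 147.5 ± 6.15 CPM in Notch2 mutant and 133 ± 5.47 CPM in wild type libraries (SD, n = 6 each), a log2 fold change of 0.16 ± 0.04 (adjusted p = 0.0310). S1pr1, a receptor for it, averaged 5.30 ± 1.99 CPM in Notch2 mutant and 8.40 ± 0.854 CPM in wild type libraries (SD, n = 6 each), a log2 fold change of -0.67 ± 0.16 (adjusted p = 0.0421). With Hes1 loxP alone, Sgpp1, a phosphatase that removes the phosphate, fell to 40.7 ± 1.90 CPM in Notch2 mutants, against 52.9 ± 7.41 CPM in wild type (SD, n = 3 each), a log2 fold change of -0.35 ± 0.08 (adjusted p = 0.0493). Sphk2, the sister kinase, stood at 30.9 RPKM, above Sphk1 at 5.32 RPKM. The highest of the list were Sgpl1, the lyase that breaks the lipid down, at 79.7 RPKM and Asah1, an acid ceramidase, at 77.5 RPKM; neither passed in any comparison.

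Lif (ENSMUSG00000034394, chromosome 11, 4257557 to 4272514, plus strand) encodes leukemia inhibitory factor, a cytokine of the interleukin 6 family that promotes bone formation. Among Hes1 deletion libraries, Lif had 50.6, 60.5 and 55.6 CPM in Notch2 mutants, against 46.4, 46.5 and 52.2 CPM in wild type libraries. Among Hes1 loxP libraries, it had 48.7, 50.5 and 55.5 CPM in Notch2 mutant libraries, against 43.2, 51.9 and 54.4 CPM in wild type libraries. The groups overlapped in both, by mutant replicate 1 under wild type replicate 3 with the Hes1 deletion. The log2 fold change was 0.22 ± 0.08 (adjusted p = 0.683) with the Hes1 deletion, 0.07 ± 0.08 (adjusted p = 0.771) with Hes1 loxP and 0.14 ± 0.06 (adjusted p = 0.239) averaged. The difference between these, the interaction, was 0.15 ± 0.12 (adjusted p = 0.999).

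Of 13 LIF family ligands, receptors and feedback genes, 9 were tested and 1 rose in Notch2 mutants averaged over Hes1 states. It was Clcf1, a related cytokine, at 3.07 ± 0.475 CPM in Notch2 mutant and 2.00 ± 0.338 CPM in wild type libraries (SD, n = 6 each), a log2 fold change of 0.65 ± 0.16 (adjusted p = 0.0453) on 29 to 60 counts per library. Its exons overlap those of another gene on the same strand. The kinase Jak1 at 28.3 RPKM and the transcription factor Stat3 at 12 RPKM were the highest of the list, with averaged Notch2 log2 fold changes of -0.02 (adjusted p = 0.768) and -0.01 (adjusted p = 0.926). The shared receptor chain Il6st stood at 6.86 RPKM and Lifr, the chain that binds LIF, at 0.384 RPKM.

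Cthrc1 (ENSMUSG00000054196, chromosome 15, 39076932 to 39087121, plus strand) encodes a secreted collagen triple helix repeat protein that favours osteoblast differentiation. In cultures with Hes1 deleted, it had 2.81, 4.45 and 4.61 CPM in Notch2 mutant libraries, against 4.51, 4.46 and 4.95 CPM in wild type libraries. In cultures with Hes1 loxP, it had 4.99, 3.35 and 5.17 CPM in Notch2 mutant libraries, against 6.05, 6.06 and 6.12 CPM in wild type libraries. The 3 wild type Hes1 loxP libraries lay above the 3 Notch2 mutant Hes1 loxP libraries, a separation seen for 18.3% of all tested genes. They also lay above the 3 wild type Hes1 deletion libraries, a separation seen for 10.9% of genes. Both shares count either direction. With 84, 117 and 110 counts, the wild type Hes1 loxP libraries had an SD of 0.034 CPM, against 0.27 to 1.00 CPM in the other groups. Why this spread was so small was not tested. The Notch2 log2 fold change was -0.21 ± 0.19 (adjusted p = 0.888) with the Hes1 deletion, -0.41 ± 0.18 (adjusted p = 0.315) with Hes1 loxP and -0.31 ± 0.13 (adjusted p = 0.253) averaged. The Hes1 deletion gave -0.20 ± 0.20 (adjusted p = 0.977) in Notch2 mutants, -0.41 ± 0.18 (adjusted p = 0.817) in wild type and -0.31 ± 0.13 (adjusted p = 0.673) averaged.

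Cthrc1 is also made by stromal cells, so a list of 15 stromal and osteoblast markers was set beside it. All 15 had counts in at least 1 library, and 12 were tested; Lum and Bglap, with 4 and 6 counts over the 12 libraries, were at 0 in some groups. Their summed level ran from 182.5 to 264 CPM in Notch2 mutant Hes1 deletion, 296 to 306 CPM in wild type Hes1 deletion, 104 to 215.5 CPM in Notch2 mutant Hes1 loxP and 224 to 260.4 CPM in wild type Hes1 loxP libraries. With the Notch2 mutation the markers and Cthrc1 lay on the same side, with 11 of 12 markers and Cthrc1 negative in the averaged comparison (1 marker, Cxcl12, fell). Between Hes1 states they lay on opposite sides, with 12 of 12 markers positive and Cthrc1 negative, and none passed. With the markers' mean log2 CPM as a covariate, the log2 fold change of Cthrc1 was -0.05 (adjusted p = 0.965) for Notch2 and -0.47 (adjusted p = 0.899) for the Hes1 deletion, both averaged. For Notch2 with the Hes1 deletion it was 0.05, against -0.21 without the covariate. The covariate follows genotype, so its fit cannot separate stromal content from genotype. The part of stromal cells in the Cthrc1 values was not tested.

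**Figure D5:**
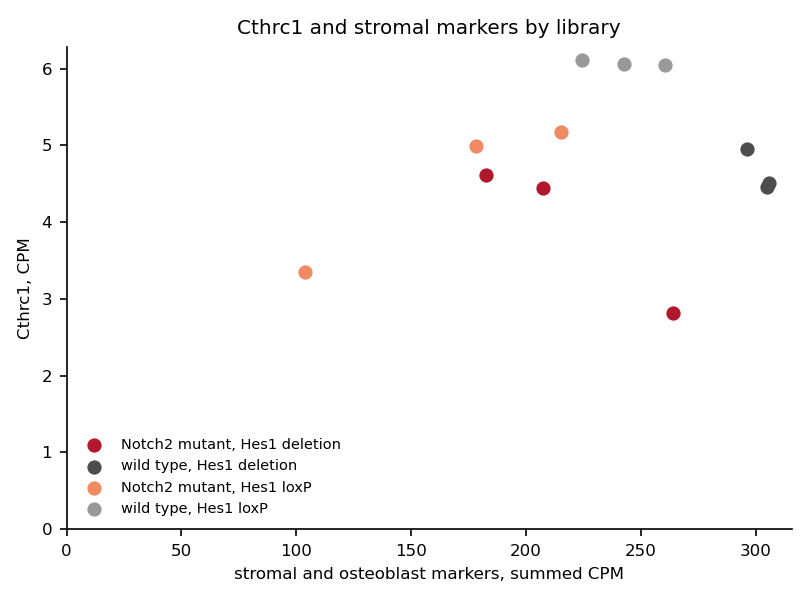
Cthrc1 CPM against the summed CPM of 15 stromal and osteoblast markers, 1 point per library, colored by group; both axes start at 0. Notch2 mutant Hes1 loxP replicate 2 is lowest in the markers, at 104 CPM, and Notch2 mutant Hes1 deletion replicate 1 is lowest in Cthrc1, at 2.81 CPM, with 264 CPM of markers.

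CTHRC1 is known to act through Wnt planar polarity receptors and effectors. Of 13 genes for these, 9 were tested and none passed in any comparison. At an unadjusted p under 0.05, 2 did in the averaged Notch2 comparison, beside 16.3% of all genes. Rac1, a small GTPase, and Dvl1, an adaptor, were the highest at 102 and 12.75 RPKM. The receptor Ror2 and the candidate CTHRC1 receptor Tpbg (WAIF1) averaged 0.0382 and 0.0948 RPKM and were below the filter. Of 14 other osteoclast-derived signals, 8 were tested. Ccn2, a secreted matrix protein, fell in Notch2 mutants averaged over Hes1 states, with 9.01 ± 1.91 CPM in Notch2 mutant and 12.9 ± 0.898 CPM in wild type libraries (SD, n = 6 each), a log2 fold change of -0.51 ± 0.11 (adjusted p = 0.0203). Exons of Ccn2 overlap those of the antisense gene Gm15270 by 665 bases, so reads of both may not be separated. Complement C3 at 65.0 RPKM and Tnfrsf11a, the RANKL receptor, at 49.8 RPKM were the highest of that list and did not pass in any comparison. Slit3, Wnt10b and Bmp6 had 36, 26 and 3 counts over the 12 libraries.

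Over all 8 partner lists, 89 of 120 genes were tested. In the averaged Notch2 comparison 5 rose and 4 fell, which is 10.1% of those tested beside 1.89% of all genes. With Hes1 loxP 2 fell (2.25% beside 0.776%), and none passed in the other 5 comparisons. The lists were chosen with earlier results of these data known. These shares therefore do not test whether partners were called more often than other genes. The calls changed when single libraries were left out, while the log2 fold changes of the 8 named above kept their sign. Without Notch2 mutant Hes1 deletion replicate 3, 0 of the 8 named above passed (adjusted p = 0.0597 to 0.129). Without wild type Hes1 loxP replicate 2, 1 passed (Thbs1), and without Notch2 mutant Hes1 loxP replicate 3, 2 did. Without wild type Hes1 loxP replicate 1 or wild type Hes1 deletion replicate 3, 4 passed, and without any other library 5 to 7 did. Thbs1 passed in 11 of the 12 such fits, Ccn2 in 10, Cd72 in 8, Spns2 in 7, Ltbp3 in 6, Mmp14 in 5, Clcf1 in 3 and S1pr1 in 1. With Hes1 loxP alone, Thbs1 passed in 7 and Sgpp1 in 4 of 12 fits, and neither did without Notch2 mutant Hes1 loxP replicate 2 or 3 or wild type Hes1 loxP replicate 1. With the stromal covariate none of the 8 passed (adjusted p = 0.508 to 0.941). Their log2 fold changes were then -0.04 for Ccn2, against -0.51 without the covariate, and -0.37 for S1pr1, against -0.67, while those of the other 6 were about as large or larger: -0.31 for Thbs1, 0.42 for Cd72, 0.24 for Mmp14, 0.23 for Ltbp3, 0.17 for Spns2 and 0.59 for Clcf1. The summed stromal markers of these libraries are given above. As the covariate follows genotype, its fit cannot separate stromal content from genotype. The part of stromal or other cells was not tested.

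Across the 12 libraries, the members varied together to different degrees. Sema4d and Sphk1 had a Pearson r of 0.83 in log2 CPM, and Sphk1 and Pdgfb 0.72, while Cthrc1 had -0.29 to 0.38 with the others. By the same measure, among 10408 genes averaging at least 1 on the log2 CPM scale, the closest to Sema4d were Tbc1d10b (0.93) and Wbp2 (0.91), and to Pdgfb Ankrd13b (0.96) and Slc25a3 (0.91). Closest to Sphk1 were Rac2 and Cd82 (both 0.96), to Lif Sik3 (0.94) and Atp5g1 (0.90), and to Cthrc1 Asah2 (0.89) and Srp9 (0.80). Tgfb1 was closest to Sh3bp2 (0.88) and Brpf3 (0.86), and Efnb2 to Acad10 (0.85) and Dennd1b (0.84). These points share libraries, depth and genotype, and the highest of many r values is given, so they are a description only.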

How the data were processed

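Polyadenylated RNA of 12 osteoclast cultures was measured as stranded, paired-end reads of 75 bases in 1 sequencing pool, per the labels' protocols. The authors deposited raw read counts for each gene ID. The submitters' processing notes name HISAT2, SAMtools, Picard, HTSeq and DESeq2 and GRCm38 as the genome build. Tool versions, annotation and the strand setting were not given in the sources used here. The 5 summary rows of each table, 15.8 to 19.0% of its total, were left out. IDs were named from GENCODE M21 (52081 of 55414), whose exons also gave lengths and positions.

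Counts were tested with edgeR 4.0.16 (R 4.3.3): 1 quasi-likelihood fit of all 12 libraries, on group means, with TMM factors and filterByExpr (minimum count 10, minimum total 15), over 13403 genes. Two-sided p-values were adjusted by Benjamini-Hochberg over all of these genes and called under 0.05. Standard errors and 95% intervals derive from the F statistic. CPM is taken over counts assigned to genes, without TMM. The fit was tested on simulated counts. Any 2 replicates of a group differed beyond counting noise (chi-square per gene 2.32 to 7.78), so none was treated as 1 library deposited more than once; this does not show that they came from separate mice, and the p-values measure the spread between these libraries. Reads carry no molecular identifiers.

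Groups come from the labels. The members, the 8 partner lists, the 7 marker lists and the rule for named genes were chosen with earlier results of these data known. The rule takes all 7 members, the called genes (at most 4) and the 2 highest genes of each partner list by RPKM, and the 2 genes most like each member; receptors and other partners named beside these were chosen for their role with their values known. The results were recomputed by DESeq2 1.42.0 and limma-voom (limma 3.58.1), with RLE scaling, without a filter, on genes averaging 50 or more counts, with the replicate number as a block, on the compared groups alone, with a stromal covariate and without each library in turn. Same-numbered libraries deviated together in every pair between the Hes1 loxP groups (r = 0.13 to 0.26), but not in every pair of any other 2 groups (r = -0.24 to 0.25). The labels give the numbers no meaning as a litter or day. The single-cell measurements that the design text mentions are not analysed here. A gene of the TGF-beta list is counted with its list but is not reported here by name or value.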

Additional observations from a re-analysis of the deposited data

How the results depend on the processing

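Of 959 values of the 7 members recomputed under the alternatives, 911 kept their direction and side of the threshold, 42 changed sign and 6 came past the threshold. The 6 are those of Pdgfb and Sphk1 in the averaged Notch2 comparison, so that the number of members called there was 2 with no filter on low counts, 1 by DESeq2 and 1 with the replicate block, and 0 to 1 with each library left out. The block took the calls over all genes to 325 there and to 148 with Hes1 loxP, lost Clcf1 (adjusted p = 0.0502) and, apart from gaining Pdgfb, changed no other call of a named gene; over all 18 same-numbered pairs of libraries, 7 had r above 0.1 and 6 had their highest r with their own number.

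The largest member value to change sign was -0.21, that of Cthrc1 for Notch2 with the Hes1 deletion. With the stromal covariate, Notch2 mutant against wild type gave -0.015 for Efnb2 with Hes1 loxP and 0.053 for Cthrc1 with the Hes1 deletion. With the same covariate, Hes1 deletion against Hes1 loxP gave -0.0445 for Sphk1 and -0.017 for Pdgfb in wild type, 0.0325 for Efnb2 in Notch2 mutants and -0.044 for Lif averaged, which was -0.0020 with no filter. The interaction of Sema4d was 0.0022 under RLE scaling and 0.0018 by DESeq2. With each library left out, Notch2 mutant against wild type with Hes1 loxP ran from -0.034 to 0.060 for Tgfb1 and from -0.026 to 0.13 for Lif. Hes1 deletion against Hes1 loxP in wild type ran from -0.062 to 0.11 for Sphk1 and from -0.015 to 0.046 for Pdgfb. In Notch2 mutants it ran from -0.11 to 0.017 for Efnb2, from -0.15 to 0.054 for Sphk1 and from -0.060 to 0.034 for Tgfb1. Averaged, it ran from -0.067 to 0.034 for Sphk1 and from -0.041 to 0.037 for Lif, and the interaction from -0.037 to 0.047 for Sema4d and from -0.17 to 0.0405 for Sphk1.

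The number of genes called over the whole table moved more. For Notch2 mutant against wild type with Hes1 loxP it was 104, and 657 with no filter, 242 by DESeq2, 1 with the stromal covariate and 26 to 289 with each library left out. With the Hes1 deletion it was 2, and 138 with no filter, 1 with a mean count of at least 50, 1 by limma-voom, 0 with the stromal covariate and 0 to 5 with each library left out. Averaged it was 253, and 853 with no filter, 420 by DESeq2, 0 with the stromal covariate and 63 to 319 with each library left out. For Hes1 deletion against Hes1 loxP in wild type it was 5, and 135 with no filter, 2 with a mean count of at least 50 and 3 to 26 with each library left out. In Notch2 mutants it was 5, and 110 with no filter, 2 with a mean count of at least 50, 3 by limma-voom, 3 with the stromal covariate and 3 to 6 with each library left out. Averaged it was 11, and 184 with no filter, 6 with a mean count of at least 50, 20 by DESeq2, 3 with the stromal covariate and 6 to 16 with each library left out. The interaction had 0, and 63 with no filter and 0 to 12 with each library left out. The cause of these shifts was not tested. The covariate follows genotype, so its fit cannot tell the 2 apart. Depth limits Cthrc1 most.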
